A study of Rattus norvegicus with 15 samples.

Results

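The miR-34 family of the rat was followed through degeneration and regeneration of the sciatic nerve. Its members were the 3 microRNAs (miRNAs) named rno-miR-34a, rno-miR-34b and rno-miR-34c in the array files, out of 350 rat miRNAs on the array, and they were picked out by name. All 3 were among the 231 miRNAs tested, having been detected throughout at least 1 group. miR-34a was detected on every array, miR-34b throughout days 4, 7 and 14 only, and miR-34c throughout days 4 and 7 only. miR-34b and miR-34c thus entered the tested set through groups in which they were high. Total RNA came from the sciatic nerve of adult male rats at 1, 4, 7 and 14 days after injury and from uninjured nerve, called day 0, with 3 arrays in each of the 5 groups. No strain, transgene or drug is named in the labels. The injury is called a resection in the series text and a crush in the protocol, and the piece taken is called the proximal stump in one place and the injury site in another. The labels do not say whether animals were pooled, so p-values measure only the spread between these arrays, which may be technical.

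The miR-34 genes are classic targets of the tumour suppressor p53, which binds their promoters and raises their transcription after DNA damage and other stress. Their mature miRNAs repress mRNAs for cell cycle progression and survival, such as those of cyclin-dependent kinases, Met and Bcl2. In mammals miR-34a comes from a gene of its own, while miR-34b and miR-34c are cut from a single shared transcript, which together with the related miR-449 genes is abundant in multiciliated cells. In the rat annotation of RefSeq (GRCr8) the Mir34b and Mir34c hairpins lie 441 bases apart on the minus strand of chromosome 8, both within the protein-coding gene Hoatz, with Btg4 the next gene beyond Mir34b. Mir34a lies on chromosome 5 within a long non-coding RNA gene, between H6pd and Gpr157. The array carries no mRNA probes, so p53 and the mRNAs that miR-34 represses were not measured.

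The mature sequences are shown because the seed, bases 2 to 8 and printed in capitals, is the part that pairs with target mRNAs, and because closely related sequences can share array signal. They are the 5′ arms in RefSeq (GRCr8), matched to the array's older names, and each is written 5′ to 3′.
miR-34a (chr5:165815971-165815992, plus strand): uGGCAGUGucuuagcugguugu
miR-34b (chr8:60306657-60306679, minus strand): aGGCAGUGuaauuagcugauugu
miR-34c (chr8:60306133-60306155, minus strand): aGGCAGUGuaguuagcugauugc
miR-449a (chr2:46403925-46403946, plus strand): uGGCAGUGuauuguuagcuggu
All 3 members share the seed GGCAGUG, which 5 of 724 mature rat miRNAs in the table carry, and 4 of those 5 were on the array. Counted from 1 at the 5′ end, miR-34c differs from miR-34b at 2 of 23 bases, as A11G and U23C with the base of miR-34b first. miR-34a aligned with 1 gap at 19 of 23 positions with miR-34b and at 18 of 23 with miR-34c. The array files give no probe sequences, so how far a probe for one member takes up another was not tested.

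Outside the mature strand the hairpins of the shared transcript differ more, as shown here with the mature 5′ arm in capitals. The opposite arm of the miR-34c hairpin has a probe set of its own, named miR-34c*.
Mir34b hairpin (chr8:60306609-60306692, minus strand): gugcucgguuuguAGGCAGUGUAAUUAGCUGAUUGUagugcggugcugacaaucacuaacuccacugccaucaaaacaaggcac
Mir34c hairpin (chr8:60306091-60306167, minus strand): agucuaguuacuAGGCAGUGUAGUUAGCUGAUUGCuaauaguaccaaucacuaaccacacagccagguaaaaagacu

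Signal is given as background-subtracted intensity, and level as that intensity divided by the array's 75th percentile, on a log2 scale. Between 200 and 239 miRNAs were detected on 14 arrays and 172 on day 14 replicate 3, which stood apart with a negative-control spread (SD) of 10.8, against 2.08 to 4.25 on the others. The 75th percentile was 914 on day 14 replicate 1 and 916 on day 14 replicate 3, against 533 to 687 on the other arrays. The bright corner spots read 82.7 to 107 on the day 1 arrays and 834 to 2549 elsewhere. Day 0 was alone on its slide and on its scan date, so in every comparison with day 0 slide, scan date and day after injury cannot be told apart. Days 1 and 4 were each on a slide of their own too. Day 1 was also alone on its scan date, while days 4 and 7 and 2 of the day 14 arrays shared a scan date.

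Both members of the shared transcript rose after injury, whereas miR-34a did not rise on this scale. miR-34b gave an intensity of 9.14, 12.5 and 11.5 on the day 0 arrays, 11.5, 11.01 and 11.8 on day 1, 22.9, 26.0 and 28.9 on day 4, 34.3, 34.0 and 35.1 on day 7, and 30.5, 29.3 and 40.6 on day 14. The days 0 and 1 arrays are low and overlap, and all 9 arrays of days 4, 7 and 14 lie above them. Groups that do not overlap day 0 were frequent, at 77.1% of tested miRNAs on day 4, 74.9% on day 7 and 62.8% on day 14 by level. Its mean log2 level was -5.82 ± 0.27 on day 0, -5.61 ± 0.10 on day 1, -4.43 ± 0.20 on day 4, -4.27 ± 0.02 on day 7 and -4.61 ± 0.26 on day 14 (SD, n = 3 each). In order of mean level the days run 0, 1, 14, 4 and 7, with days 0 and 1 overlapping and days 14, 4 and 7 each overlapping a neighbour in that order.

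**Figure D1:**
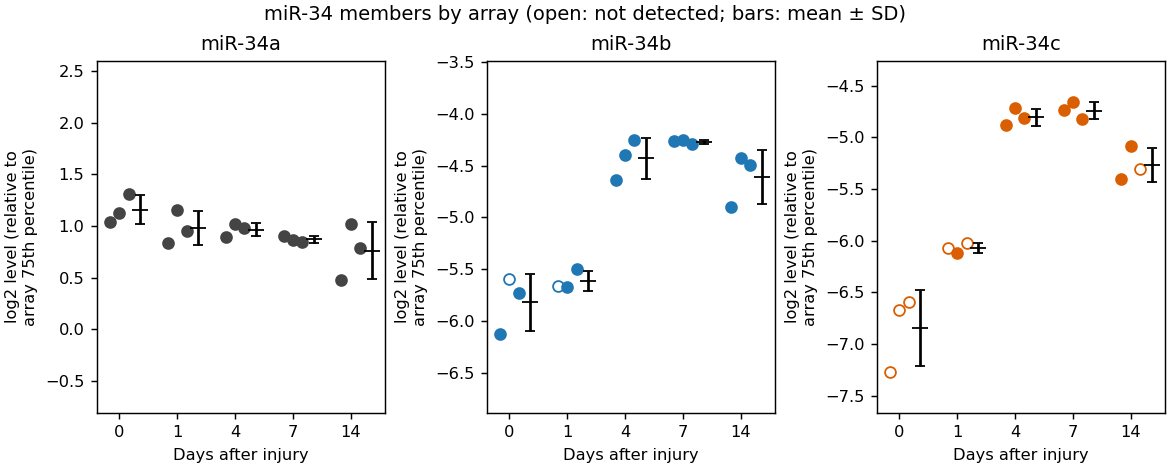
Log2 level of miR-34a, miR-34b and miR-34c (vertical axes of equal length, different origins) on each array by days after injury (horizontal axis), with mean and SD of the 3 arrays beside the points. Open points are arrays on which the scanner software did not call the miRNA detected: 2 for miR-34b, and 6 for miR-34c, of which 5 are on days 0 and 1.

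On day 1 the change of miR-34b against day 0 was 0.21 ± 0.15 (log2, SE from limma, adjusted p = 0.258), a comparison in which 60.6% of tested miRNAs changed in either direction and 16.9% rose. That small change passed in some settings, without day 14 replicate 3 (0.42, adjusted p = 0.0279) and with the 75th percentile taken over all miRNAs (0.38, adjusted p = 0.0286). From day 4 on miR-34b was clearly above day 0. On day 4 it rose by 1.39 ± 0.15 (adjusted p = 5.74e-06), with 65.8% of tested miRNAs changed and 20.3% risen. The day 7 rise was 1.55 ± 0.15 (adjusted p = 2.06e-06), with 62.8% changed and 17.3% risen. On day 14 it was 1.21 ± 0.15 (adjusted p = 1.63e-05), with 66.7% changed and 16% risen. Most tested miRNAs thus changed, and the balance of rises and falls depended on the scaling. On the scale used here 39 rose and 101 fell on day 1, 47 and 105 on day 4, 40 and 105 on day 7, and 37 and 117 on day 14. With the percentile over all miRNAs these were 57 and 85, 74 and 74, 82 and 63, and 70 and 54, and without scaling 64 rose and 43 fell on day 14. None of its 60 spots on the day 0 arrays was flagged well above background, while all 60 were on day 4, all 60 on day 7 and 36 on day 14. The software called it detected on 2 of the 3 day 0 arrays, and the fitted folds of 2.62 on day 4, 2.93 on day 7 and 2.32 on day 14 are taken against that dim level. Taken singly, 1 probe gave a log2 change of 1.64 on day 4 and 0.97 on day 14, and the other gave 1.28 and 1.31. The day 14 rise was lost with normexp, which models the background and adds 50 to every spot (0.073, adjusted p = 0.528), and the day 4 and day 7 rises were smaller there, at 0.35 (adjusted p = 0.00895) and 0.28 (adjusted p = 0.0283).

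miR-34c, cut from the same transcript, was also higher on the later days. Its intensity was 4.14, 5.92 and 6.32 on day 0, 8.73, 8.09 and 8.22 on day 1, 19.3, 20.9 and 19.5 on day 4, 24.6, 25.7 and 24.2 on day 7, and 21.6, 18.5 and 23.1 on day 14. Every injured array was above every day 0 array, and the day 1 arrays stood between day 0 and the later days without overlap. On day 1, 68.4% of tested miRNAs did not overlap day 0 before scaling and 53.7% by scaled level. Between day 4 and day 1, 60.6% did not overlap by scaled level. The mean log2 level was -6.85 ± 0.37 on day 0, -6.07 ± 0.05 on day 1, -4.81 ± 0.08 on day 4, -4.74 ± 0.08 on day 7 and -5.26 ± 0.16 on day 14 (SD, n = 3 each). The order of means was day 0, 1, 14, 4 and 7, as for miR-34b, and of neighbours in this order days 4 and 7 overlapped.

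The log2 change of miR-34c against day 0 was 0.78 ± 0.15 on day 1 (adjusted p = 0.000619), 2.04 ± 0.15 on day 4 (adjusted p = 8.89e-08), 2.10 ± 0.15 on day 7 (adjusted p = 8.04e-08) and 1.58 ± 0.15 on day 14 (adjusted p = 1.77e-06). All 4 passed the test, but on day 1 both sides of the comparison lay near background, with 1 of 60 spots well above it on each day. The software detected it on no day 0 array, on 1 of 3 on day 1, on all 3 on days 4 and 7, and on 2 of 3 on day 14. The day 0 level was then set to the lowest signal well above background, a mean log2 level of -6.24. Against that level the rise was 2.69-fold on day 4, 2.82-fold on day 7 and 1.96-fold on day 14. These folds are not strict lower bounds, since miR-34b on day 0 lay higher, at -5.82, without being well above background. For day 1 no such fold can be given. The day 1 call was lost with the software's own total signal (log2 change 0.38, adjusted p = 0.535). With normexp the rise passed on day 4 (0.33, adjusted p = 0.00689) and day 7 (0.24, adjusted p = 0.0374), and not on day 1 (0.15, adjusted p = 0.228) or day 14 (-0.026, adjusted p = 0.794).

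**Figure D2:**
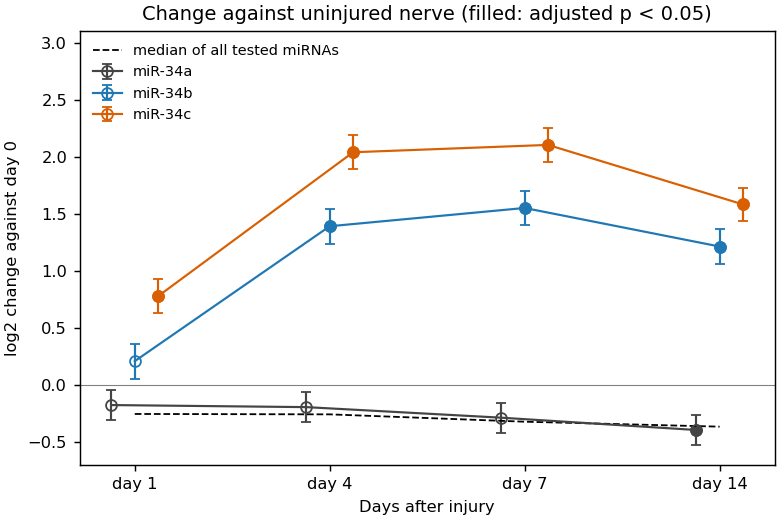
Log2 change against day 0 (vertical axis) on days 1, 4, 7 and 14 (horizontal axis) for the 3 members, with limma SE and filled points at adjusted p under 0.05; the dashed line is the median change of the 231 tested miRNAs. miR-34b and miR-34c stand at 1.21 to 2.10 from day 4 on, while miR-34a lies close to the median, at -0.18 to -0.40.

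Between consecutive times, most of the rise of the shared transcript's miRNAs fell between days 1 and 4. These 2 groups were on different slides and had different scan dates, so slide, scan date and day after injury cannot be told apart in this step. Day 4 against day 1 gave 1.18 ± 0.15 for miR-34b (adjusted p = 4.6e-05) and 1.26 ± 0.15 for miR-34c (adjusted p = 2.04e-05), where 51.5% of tested miRNAs changed and 27.7% rose. Neither step passed with normexp (0.23, adjusted p = 0.102, and 0.18, adjusted p = 0.166). Day 7 against day 4 gave 0.16 ± 0.15 for miR-34b (adjusted p = 0.552) and 0.064 ± 0.15 for miR-34c (adjusted p = 0.817), with 6.06% of miRNAs changed. Day 14 against day 7 gave -0.34 ± 0.15 for miR-34b (adjusted p = 0.157), and miR-34c fell by 0.52 ± 0.15 (adjusted p = 0.0325), where 13.9% changed and 9.09% fell. By scaled level all 3 day 14 arrays were below all 3 day 7 arrays for both, in a comparison where 38.1% of miRNAs did not overlap. Before scaling, day 14 replicate 3 was the brightest of these 6 arrays for miR-34b. The miR-34c fall did not hold on the slide that carries day 7 and 2 of the day 14 arrays (-0.50, adjusted p = 0.0846). It was also lost without any 1 of the 3 day 7 arrays (adjusted p 0.0576 to 0.11), without day 14 replicate 1 (adjusted p = 0.0715), without day 4 replicate 3 (adjusted p = 0.0505) and without scaling (-0.24, adjusted p = 0.181).

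miR-34a, the member with its own gene, was well above background on every array, at 147 to 528 times the negative-control SD. Its intensity was 1311, 1317 and 1521 on day 0, 1042, 1253 and 1034 on day 1, 1059, 1113 and 1083 on day 4, 1229, 1184 and 1232 on day 7, and 1271, 1274 and 1582 on day 14. Before scaling, the arrays of days 1, 4 and 7 are all below day 0, and day 14 overlaps it. Before scaling 68.4% of tested miRNAs did not overlap day 0 on day 1, 79.2% on day 4, 71.9% on day 7 and 46.3% on day 14. The mean log2 level was 1.16 ± 0.14 on day 0, 0.98 ± 0.16 on day 1, 0.96 ± 0.06 on day 4, 0.87 ± 0.03 on day 7 and 0.76 ± 0.27 on day 14 (SD, n = 3 each). Each neighbouring pair in this order overlapped, while the scaled levels of days 4, 7 and 14 were all below those of day 0.

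The log2 change of miR-34a against day 0 was -0.18 ± 0.13 on day 1 (adjusted p = 0.258), -0.20 ± 0.13 on day 4 (adjusted p = 0.201) and -0.29 ± 0.13 on day 7 (adjusted p = 0.0688). On day 14 it fell by 0.40 ± 0.13 (adjusted p = 0.0157), where 50.6% of tested miRNAs fell. These values stand near the median change of all tested miRNAs, which was -0.26 on days 1 and 4, -0.32 on day 7 and -0.37 on day 14. The direction depends on the scaling. With quantile normalization the change was 0.30 on day 4 (adjusted p = 0.00878), 0.28 on day 7 (adjusted p = 0.0148) and 0.036 on day 14 (adjusted p = 0.729), and the deposited value table gave 0.26, 0.24 and 0.031. Without scaling the day 14 change was -0.012 (adjusted p = 0.927). The day 14 call was also lost without day 0 replicate 3 (adjusted p = 0.069), day 14 replicate 1 (adjusted p = 0.0788) or day 14 replicate 3 (adjusted p = 0.094). The day 7 change passed when day 0 replicate 1 or 2, or day 14 replicate 1 or 2, was left out (adjusted p 0.0298 to 0.0499). No direction of miR-34a therefore held across the settings tried.

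Over the 5 groups together, the limma F test passed for miR-34c (F = 73.6, adjusted p = 1.64e-07) and for miR-34b (F = 43.9, adjusted p = 1.93e-06) and not for miR-34a (F = 2.54, adjusted p = 0.0974), for which it passed without day 14 replicate 2 (F = 4.80, adjusted p = 0.0181). The same test passed for 86.1% of tested miRNAs.

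The difference between the genes was tested within each array, where scaling between arrays cancels. The log2 difference of miR-34b minus miR-34a was -7.16, -6.72 and -7.05 on day 0, -6.50, -6.83 and -6.45 on day 1, -5.53, -5.42 and -5.23 on day 4, -5.16, -5.12 and -5.13 on day 7, and -5.38, -5.44 and -5.29 on day 14. Its absolute size mixes probe properties and only its shift is read here. All 9 arrays of days 4 to 14 (-5.53 to -5.12) were above the 3 day 0 arrays (-7.16 to -6.72), with a difference of means of 1.68 (two-sided exact permutation p = 0.00909, the smallest that 220 arrangements allow). By scaled level, 62.8% to 77.1% of tested miRNAs did not overlap day 0 on each of these days. The share of miRNAs whose difference from miR-34a separates in this way was not counted. The permutation treats the 9 arrays of days 4, 7 and 14 as exchangeable, and miR-34b entered the tested set through those days. Day 0 was alone on its slide, so this p cannot part injury from slide. With the day 1 arrays added the difference was 1.35 (exact permutation p = 0.00879), and day 1 replicate 2 fell within the day 0 range.

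Tested relative to miR-34a with limma, miR-34b had moved up by 0.38 ± 0.13 on day 1 (adjusted p = 0.0206), 1.59 ± 0.13 on day 4 (adjusted p = 3.86e-07), 1.84 ± 0.13 on day 7 (adjusted p = 8.34e-08) and 1.61 ± 0.13 on day 14 (adjusted p = 3.63e-07). The share of miRNAs that moved up relative to miR-34a was 23.9% on day 1, 27.8% on day 4, 28.3% on day 7 and 30.4% on day 14, of 54.8%, 63.9%, 57.8% and 50% that moved either way. miR-34c had moved up by 0.95 ± 0.13, 2.23 ± 0.13, 2.39 ± 0.13 and 1.98 ± 0.13 on the same days, with adjusted p of 8.86e-05, 1.76e-08, 7.21e-09 and 5.5e-08. The separation of the shared transcript from the separate gene thus passed on all 4 days. Its size depended on the processing, on day 14 from 0.42 to 3.29 for miR-34b and from 0.32 to 2.70 for miR-34c. On day 1 the separation passed for neither with the software's total signal (adjusted p = 0.534 for miR-34b and 0.374 for miR-34c). The day 1 call for miR-34b was lost without day 0 replicate 1 or 3 or without day 1 replicate 1 or 3 (adjusted p 0.0596 to 0.0901), and it turned to -0.19 with the deposited table.

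**Figure D3:**
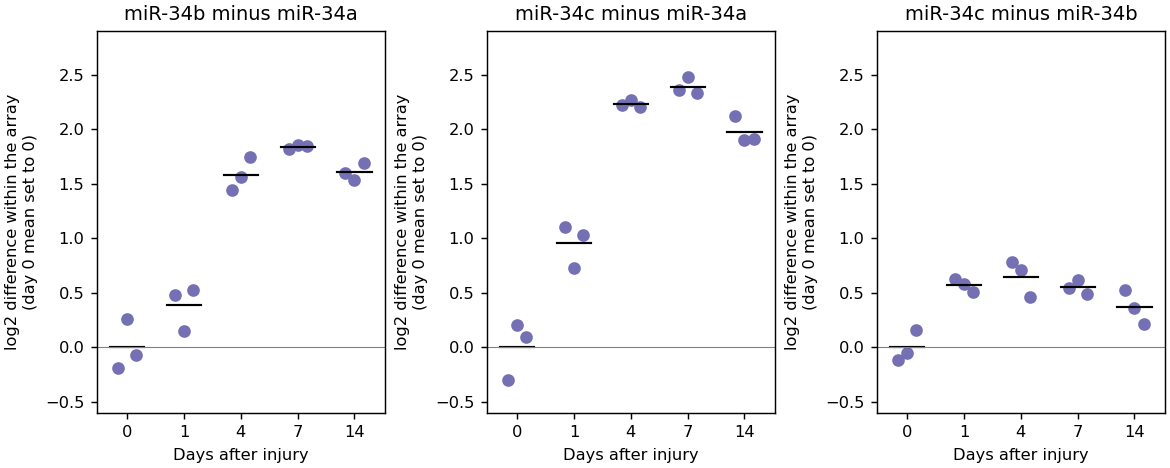
Log2 difference between 2 members on the same array (vertical axis, the day 0 mean set to 0) by days after injury, with a point per array and a line at the mean. miR-34b minus miR-34a and miR-34c minus miR-34a both stand apart from day 0 on days 4, 7 and 14, with mean shifts of 1.59 to 2.39, and miR-34c minus miR-34b shifts by 0.37 to 0.65.

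Within the shared transcript, the fitted change of miR-34c was larger than that of miR-34b, against day 0 signals that were near background for both. Relative to miR-34b it was up by 0.57 ± 0.13 on day 1 (adjusted p = 0.00176), 0.65 ± 0.13 on day 4 (adjusted p = 0.000209), 0.55 ± 0.13 on day 7 (adjusted p = 0.000782) and 0.37 ± 0.13 on day 14 (adjusted p = 0.0132). The miRNAs that changed either way relative to miR-34b were 67.8%, 93.5%, 96.5% and 94.8% of those tested on these days, and 11.7%, 3.91%, 2.61% and 2.61% moved up. On day 1, with 1 of 60 spots of miR-34c and 3 of 60 of miR-34b well above background, both sides of the comparison were near background. The difference depended on the processing, and the cause was not tested. With normexp the day 7 difference was -0.041 (adjusted p = 0.357), and with the software's total signal it was 0.32 (adjusted p = 0.489). On day 14 normexp gave -0.10, which passed in the opposite direction (adjusted p = 0.0378). The day 14 difference was lost without day 0 replicate 1 (adjusted p = 0.0567) or day 14 replicate 1 (adjusted p = 0.0576).

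Each member was read by 2 probes of 10 spots an array, here called a and b. For miR-34b, probe a averaged 26.4 ± 1.66 on day 7 and 7.38 ± 2.65 on day 0, and probe b averaged 42.5 ± 1.67 on day 7 and 14.7 ± 0.83 on day 0 (intensity, SD, n = 3 each). Probe a of miR-34c averaged 16.1 ± 0.62 on day 7 and 2.54 ± 1.23 on day 0, and probe b averaged 33.5 ± 1.07 on day 7 and 8.38 ± 1.11 on day 0. All 4 probes therefore gave the rise. Their log2 changes on day 7 were 1.81 and 1.43 for miR-34b and 2.37 and 1.90 for miR-34c. The probes of miR-34b parted on day 14 against day 7, with -0.84 for probe a (adjusted p = 0.0372) and -0.12 for probe b (adjusted p = 0.67). On day 14 probe b of miR-34b ranged from 38.7 to 65.0, with the highest value on replicate 3.

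**Figure D4:**
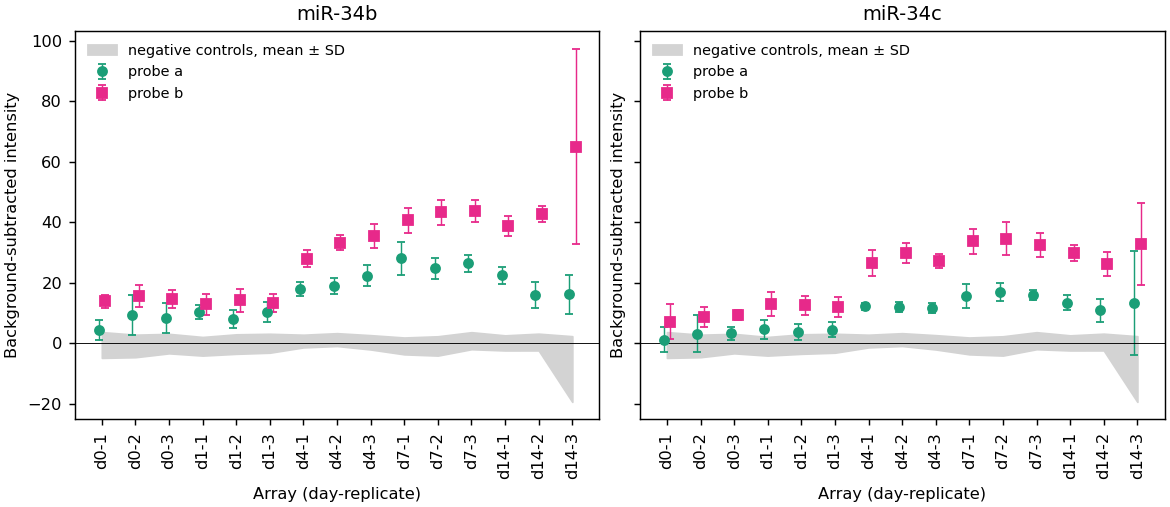
Background-subtracted intensity (vertical axis) of each probe of miR-34b and miR-34c on each array (horizontal axis, day and replicate), as mean and SD over spots; the grey band is the mean ± SD of negative-control spots. All 4 probes are higher on every day 4 and day 7 array than on any day 0 or day 1 array. Probe b of each already stands above the band on day 0, at 13.9 to 15.6 for miR-34b and 7.16 to 9.33 for miR-34c. Probe a of miR-34b is above it too, at 4.39 to 9.41, and probe a of miR-34c lies within or just above it, at 1.13 to 3.31. On day 14 replicate 3 the spots spread widely and the band drops to a mean of -8.54.

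Among the other probes of the seed and the hairpin, miR-449a, which carries the same seed, was not detected on any array. Its mean intensity was 3.58 ± 0.78 on day 7 and 0.09 ± 1.28 on day 0 (SD, n = 3 each), with 0 of 60 spots well above background on day 7 and 5 of 60 on day 0. Its brighter probe averaged 2.07, 4.95, 8.04, 7.49 and 6.28 on days 0, 1, 4, 7 and 14. The other averaged -1.90, 1.95, -0.46, -0.33 and -5.30. The source of the brighter probe's increase was not tested. miR-34c*, the opposite arm, was also not detected on any array, with mean intensities from -2.63 on day 1 to 0.69 on day 7. The rise in the 5′ arms was thus measured without a detected signal from the opposite arm, whose level on this array is only known to be below detection.

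Across the 15 arrays, the miRNA most like miR-34b in log2 level was miR-34c (Pearson r = 0.963), followed by miR-146b (0.962), a repressor of inflammatory signalling, and by miR-19b (0.959), miR-15b (0.942) and miR-21 (0.933). Those most like miR-34c were miR-21 (0.977), which is widely induced by tissue injury, miR-221 (0.973), which represses the cell cycle inhibitor p27, miR-31 (0.966), miR-34b (0.963) and miR-19b (0.955). miR-34a was most like miR-29c* (0.892), miR-328 (0.831), miR-218 (0.828), miR-125b-5p (0.824) and miR-22* (0.821). With its relatives it ran at r = -0.41 for miR-34b and -0.45 for miR-34c. These are descriptions over 15 arrays that share 5 group means, slides and a scaling factor.

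Other miRNAs known to be transcribed or processed under p53 did not follow miR-34b and miR-34c. Of 13 named, 12 were on the array, 5 of these (miR-215, miR-200a, miR-200b, miR-200c and miR-141) were never detected, and 7 were tested. Of the 7, 1 rose and 3 fell on day 1, 7 fell on day 4, 7 fell on day 7 and 6 fell on day 14, with median changes of -0.24, -0.61, -0.69 and -0.76 on those days. Over all tested miRNAs 43.7% fell on day 1, 45.5% on day 4, 45.5% on day 7 and 50.6% on day 14. On day 7 miR-107 was at -1.06 ± 0.12 (adjusted p = 4.33e-06), miR-192 at -0.92 ± 0.13 (adjusted p = 4.14e-05) and miR-22 at -0.69 ± 0.11 (adjusted p = 0.000107). The 1 that rose on day 1 was miR-145, at 0.59 ± 0.11 (adjusted p = 0.000652). It and miR-143 are also markers of smooth muscle and fibroblasts, whose summed level was 10.01 to 10.8 on day 7 and 9.97 to 11.4 on day 0. That sum covers opposite moves, since on day 7 miR-143 (-0.50) and miR-145 (-0.60) fell while miR-199a-5p (0.58) and miR-214 (0.73) rose. With other scalings fewer passed: on day 7 it was 5 of 7 with quantile normalization and 2 of 7 in the deposited table, with none risen in either. Of all tested miRNAs, 74 of 231 fell on day 7 with quantile normalization and 61 of 230 in the deposited table.

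miRNAs that bind the p53 mRNA and lower p53 were tested as a list of 4, out of 6 named, of which 5 were on the array and miR-380 was never detected. On day 7, when 45.5% of all tested miRNAs fell, 3 of the 4 fell and none rose. These were miR-33 at -1.69 ± 0.19 (adjusted p = 5.43e-06), miR-125b-5p at -1.003 ± 0.15 (adjusted p = 4.24e-05) and miR-30d at -0.72 ± 0.13 (adjusted p = 0.000265). The fourth, miR-25, was at 0.21 (adjusted p = 0.154) on day 7 and rose by 0.31 ± 0.13 on day 14 (adjusted p = 0.0441), and with quantile normalization 1 of the 4 rose on day 7 as well. With that scaling 59 of all 231 tested miRNAs rose on day 7. The list of miRNAs of proliferation and growth factor response had 8 of 8 members tested, of which 7 rose on day 1 and all 8 on days 4, 7 and 14, with median changes of 0.59, 1.63, 1.38 and 1.06. Of all tested miRNAs 16.9% rose on day 1, 20.3% on day 4, 17.3% on day 7 and 16% on day 14. This list, like the others, was chosen with earlier results of these data known, so its counts describe its members and are not a test. On day 7 miR-21 was at 3.19 ± 0.12 (adjusted p = 6.75e-11), miR-221 at 1.73 ± 0.10 (adjusted p = 9.73e-09) and miR-18a at 2.05 ± 0.16 (adjusted p = 1.84e-07). All 8 also rose on day 7 without scaling, with quantile normalization and with the percentile taken over all miRNAs. Of all 231 tested miRNAs, 43, 59 and 82 rose on day 7 in these settings.

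Marker miRNAs of other cell types shifted over the same days. The 4 leukocyte markers, all detected on every array, summed to a level of 1.42 to 1.69 on day 0, 2.94 to 4.05 on day 1, 2.63 to 2.99 on day 4, 2.66 to 2.95 on day 7 and 1.89 to 2.51 on day 14. The 4 myelinating glia markers, all detected on every day 0 array, summed to 16.9 to 25.9 on day 0, 11.1 to 14.7 on day 1, 8.73 to 10.2 on day 4, 8.90 to 9.78 on day 7 and 10.3 to 13.9 on day 14. They did not all fall at once. On day 1 miR-211 (-1.41), miR-338 (-0.83) and miR-204 (-0.42) fell, and miR-138 was at -0.0058 (adjusted p = 0.977). On day 4 miR-338 (-1.27), miR-138 (-0.97) and miR-204 (-0.66) fell, and miR-211 was at -0.19 (adjusted p = 0.575). The leukocyte markers did not move as one. miR-142-3p rose by 0.82, 1.16, 1.54 and 1.28 (log2 against day 0) on days 1, 4, 7 and 14 and miR-142-5p by 1.002 to 1.31 over these days, while miR-223 rose by 1.79, 1.14 and 0.80 on days 1, 4 and 7 and was at 0.21 on day 14 (adjusted p = 0.281). miR-150 was at -0.087 on day 1 (adjusted p = 0.513) and fell by 0.60, 0.73 and 0.69 on days 4, 7 and 14. Of 7 epithelial markers 5 were never detected, and the multiciliated cell marker miR-449a was not detected on any array. Muscle markers varied widely within a group, at 0.74 to 16.3 on day 0. In whole nerve, fewer cells of a type and less RNA per cell cannot be told apart, and the part of these shifts in the rise of miR-34b and miR-34c was not tested.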

How the data were processed

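The members and lists were chosen with earlier results of these data known. Per the file headers, the intensity of each spot was extracted by Agilent Feature Extraction 10.7.3.1, which subtracted background and did not scale between arrays. The labels name a mirVana kit and 0.1 µg of RNA labelled with cyanine 3. Judged by its values, the authors' deposited table holds log2 signals; the median of each column is 4.28, except day 14 replicate 3 with 0.834, and how it was scaled is not given in the sources used here. It was used as an alternative only.

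Control and outlier spots were left out. Spot intensities were averaged by probe and those by miRNA, divided by the array's 75th percentile over the 164 miRNAs detected on all 15 arrays, floored at 0.00362 and log2-transformed. limma 3.58.1 in R 4.3.3 fitted the means of the 5 groups (residual degrees of freedom 10, prior 3.28); tests were two-sided, with Benjamini-Hochberg adjustment over the 231 tested miRNAs per comparison and a threshold of 0.05. Pair differences were fitted on values relative to miR-34a or miR-34b. The exact permutation test used Python 3.11.15 and scipy 1.17.1. The fit was tested on simulated data. The number of arrays limits the precision.

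The text names the 3 members, the 5 miRNAs most correlated with each, miRNAs of the same seed, star arms and, from each list, up to 3 with the smallest adjusted p on day 7; miR-145, miR-143, miR-25 and the markers named singly were chosen after their values were seen. Nothing in the labels pairs animals by replicate number, and over 30 pairs of groups and numbers same-numbered arrays deviated together with r of -0.78 to 0.59, 8 of them above 0.1, so no pairing was assumed. Alternatives changed the signal, background, scaling, floor, filter, probe, block and arrays.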

Additional observations from a re-analysis of the deposited data

How the results depend on the processing

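Of 936 recomputed values for 37 results on the members, 848 kept their direction and side of the threshold. The rises of miR-34b and miR-34c on days 4 and 7 kept theirs under every alternative that gave a value. So did both differences from miR-34a on days 4, 7 and 14. Keeping only miRNAs detected on all arrays gives no value for miR-34b or miR-34c. The sizes varied. Leave-one-out fits aside, miR-34b minus miR-34a was 0.53 to 2.83 on day 4, 0.55 to 3.17 on day 7 and 0.42 to 3.29 on day 14. On these days miR-34c minus miR-34a was 0.51 to 3.91, 0.51 to 4.21 and 0.32 to 2.70. With normexp neither miR-34b (0.073) nor miR-34c (-0.026) itself passed on day 14. Values are log2 changes against day 0 unless another day is named, and the causes were not tested.

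Normexp was chosen after seeing that the planned signal column was missing. With it miR-34c was 0.15 on day 1 and -0.026 on day 14, miR-34b 0.073 on day 14 and miR-34a -0.27 on day 7 (passing). Day 4 against day 1 was 0.23 for miR-34b and 0.18 for miR-34c, and day 7 against day 4 was -0.071 and -0.092. Day 14 against day 7 was -0.26 for miR-34c. The difference miR-34c minus miR-34b was 0.036, -0.020, -0.041 and -0.10 on days 1, 4, 7 and 14, the last passing in the opposite direction. With the software's total signal, miR-34c was 0.38 on day 1 and -1.44 on day 14 against day 7, miR-34b minus miR-34a 0.26 and miR-34c minus miR-34a 0.56 on day 1, and miR-34c minus miR-34b 0.29, 0.41, 0.32 and -0.70. With the deposited table, miR-34a was 0.16, 0.26, 0.24 and 0.031, and 0.10 on day 4 against day 1 (F = 4.39, passing); miR-34b was -0.029 and miR-34c 0.65 on day 1, miR-34c -1.71 on day 14 against day 7, miR-34b minus miR-34a -0.19 and miR-34c minus miR-34a 0.49 on day 1, and miR-34c minus miR-34b 0.68, 1.09, 1.04 and -0.59.

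Scaling moved miR-34a most. Quantile normalization gave 0.18, 0.30, 0.28 and 0.036, and 0.12 on day 4 against day 1 (F = 4.95, passing), with miR-34c at -0.31 on day 14 against day 7. The percentile over all miRNAs gave miR-34a 0.12, 0.075 and -0.037 on days 4, 7 and 14 and 0.12 on day 4 against day 1, with miR-34b at 0.38 on day 1 (passing). Without scaling miR-34a was -0.32 and -0.35 on days 1 and 4 (both passing), -0.012 on day 14, 0.16 on day 7 against day 4 and 0.17 on day 14 against day 7 (F = 4.22, passing), and miR-34c was -0.24 on day 14 against day 7. With no filter miR-34c was -0.52 on day 14 against day 7 and did not pass, nor did it on the shared slide alone (-0.50). Probe b alone gave miR-34a 0.011 on day 4 against day 1, and probe a alone gave miR-34b -0.84 on day 14 against day 7 (passing). With only the 2 groups' arrays miR-34a was -0.29 on day 7 (passing) and -0.40 on day 14 (not passing).

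The replicate block let miR-34a pass on day 7 (-0.29, adjusted p = 0.0379) and in the F test (F = 3.57, adjusted p = 0.0483) and changed no other call; 5 of 15 arrays correlated best with their own number. The slide as a random block (correlation -0.05) let miR-34a pass on day 7 (-0.29).

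Leaving out 1 array at a time, miR-34a ranged from -0.26 to 0.035 on day 1, -0.36 to -0.13 on day 7, -0.53 to -0.25 on day 14, -0.093 to 0.070 on day 4 against day 1 and -0.24 to 0.036 on day 14 against day 7 (F 1.53 to 4.80). miR-34b ranged from 0.054 to 0.42 on day 1, passing without day 14 replicate 3, and miR-34c from -0.61 to -0.45 on day 14 against day 7. miR-34b minus miR-34a ranged from 0.29 to 0.51 on day 1 and miR-34c minus miR-34b from 0.29 to 0.45 on day 14. Calls over all miRNAs were 14 for day 7 against day 4 (1 to 33 under the alternatives), 32 for day 14 against day 7 (11 to 82) and 119 for day 4 against day 1 (62 with normexp). Signal near background on days 0 and 1 limits the precision of miR-34b and miR-34c.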
